A study of Mus musculus with 30 samples.

Results

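The genes of cholesterol synthesis and lipogenesis are 35 mouse genes, 20 of a sterol branch and 15 of a fatty acid branch, followed here in heart tissue. They were taken by symbol from a list chosen with earlier results of these data known, and were matched by Ensembl ID. All 35 were found among the 78258 genes of the postpartum study's count table and among the 56691 genes of the diet study's table. The sterol branch holds enzymes of the mevalonate pathway and of the steps from lanosterol to cholesterol, with the regulators Srebf1, Srebf2 and Insig1. The fatty acid branch holds the enzymes that make acetyl-CoA and malonyl-CoA, the fatty acid synthase, the desaturases and elongases that modify fatty acids, and the acyltransferases that build glycerolipids.

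Cells make cholesterol from acetyl-CoA by way of mevalonate, squalene and lanosterol, and the same acetyl-CoA feeds malonyl-CoA and fatty acid synthesis. The sterol regulatory element-binding proteins encoded by Srebf2 and Srebf1 are cut from the membrane when sterols are low and then switch on the sterol enzymes and many lipogenic enzymes, while Insig1 holds them back. The heart makes little fat and burns much of it, and malonyl-CoA there is best known as the brake on entry of fatty acids into mitochondria.

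Hearts came from mice that carried the p.S55L mutation of CHCHD10, a protein of the mitochondrial intermembrane space, and from wild-type (WT) mice, and were profiled by 3′ mRNA sequencing. The postpartum study had S55L mice that were bred from 65 days of age and killed at day 0 after birth (S55L PP), S55L mice aged to 100 days (S55L naive), WT mice bred and killed in the same way (WT PP), and WT mice aged to 100 days (WT naive). In the diet study all mice were S55L and postpartum, and had been given an EH301 diet or a control diet while breeding; EH301 is a supplement of pterostilbene and the NAD precursor nicotinamide riboside. The 6 groups have 5 deposited columns each, and the labels do not state that each column is a separate mouse, nor whether 1 or both copies of the gene carried the mutation, so a p-value here reflects how much libraries vary, not necessarily mice.

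Columns 1 and 2 of WT PP held identical counts, as did columns 1 and 2 of S55L PP, and each pair was counted as 1 library (n = 4 per PP group, n = 5 per naive group). Control diet column 5 and EH301 diet column 6 were also identical, so that library's diet is unknown and it was left out (n = 4 each). Reads on genes ranged from 2755500 to 4157372 in S55L PP, 3369420 to 5131316 in S55L naive, 1897249 to 2949993 in WT PP and 1418715 to 2307283 in WT naive, so most S55L libraries were deeper than WT libraries. Reads on genes made up 67.8% to 68.5% of a library's total in S55L PP and 66.3% to 69.2% in S55L naive, against 59% to 61.6% in WT PP and 58.3% to 61.5% in WT naive. Reads with no unique alignment made up 17.5% to 20% in S55L PP and 18.4% to 21.2% in S55L naive, against 24.9% to 27.3% in WT PP and 24.7% to 27.3% in WT naive, so neither share overlapped between genotypes. Most WT libraries stood in plate column 1 and the S55L libraries in columns 2 and 3, so that genotype and plate column can be separated only through WT PP 1, which stood in column 2. The 7 cardiomyocyte marker genes summed to between 30100 and 39400 CPM (counts scaled to a common library size) in S55L PP and 39000 to 51300 CPM in S55L naive, against 63600 to 75200 CPM in WT PP and 64200 to 78600 CPM in WT naive. The 8 macrophage markers summed to 659 to 931 CPM in S55L PP and 636 to 923 CPM in S55L naive, against 200 to 317 CPM in WT PP and 147 to 189 CPM in WT naive. The 6 fibroblast markers summed to 1650 to 2190 CPM in S55L PP and 1480 to 1850 CPM in S55L naive, against 1030 to 1340 CPM in WT PP and 965 to 1330 CPM in WT naive. The 6 endothelial markers summed to 350 to 551 CPM in S55L PP and 394 to 548 CPM in S55L naive, against 627 to 719 CPM in WT PP and at most 714 CPM in WT naive. All these marker sums were apart between genotypes. Adipocyte markers summed to at most 10.6 CPM in any library of the postpartum study. In bulk tissue, fewer cells of a type and less RNA per cell cannot be told apart, and the part of depth, of the alignment shares and of these markers in the genotype differences below was not tested except where a value is given. Counts of Chchd10 itself do not read the mutated codon and check no label; S55L differed from WT by 0.73 in naive hearts (adjusted p = 0.0028) and 0.29 in PP hearts (adjusted p = 0.31) on the log2 scale.

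The promoters of 5 sterol branch genes are shown, of which 4 encode enzymes that act close together after lanosterol. By the test given below, Cyp51 and Msmo1 were called higher in S55L than in WT in both naive and PP hearts. Nsdhl was called higher in naive hearts only and Hsd17b7 lower in PP hearts only, and these calls were lost in several alternative fits. Hmgcs1 was called in neither. It is the only member with an entry to match TCACNCCAC, the only form of the sterol response element searched. Fdft1, which has no promoter entry, and Srebf1 were also called and are not shown. Each sequence runs from 250 bases before to 50 bases after the annotated start, comes from RefSeq on build GRCm38.p6, and has motif matches in capitals: CCAAT, or ATTGG where it lies on the other strand, TCACNCCAC for the sterol response element, and CACGTG for the E-box. The regions are chr5:4104648-4104947 on the minus strand for Cyp51, chr8:64733529-64733828 on the minus strand for Msmo1, chrX:72918271-72918570 on the plus strand for Nsdhl, chr1:169969156-169969455 on the minus strand for Hsd17b7 and chr13:119690101-119690400 on the plus strand for Hmgcs1.
Cyp51: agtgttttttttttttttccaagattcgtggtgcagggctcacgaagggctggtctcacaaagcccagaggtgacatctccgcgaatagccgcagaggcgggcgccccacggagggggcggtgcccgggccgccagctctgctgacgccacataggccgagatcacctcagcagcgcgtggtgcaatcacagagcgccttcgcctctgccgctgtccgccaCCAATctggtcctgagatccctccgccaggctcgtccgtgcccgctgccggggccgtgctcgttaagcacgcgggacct
Msmo1: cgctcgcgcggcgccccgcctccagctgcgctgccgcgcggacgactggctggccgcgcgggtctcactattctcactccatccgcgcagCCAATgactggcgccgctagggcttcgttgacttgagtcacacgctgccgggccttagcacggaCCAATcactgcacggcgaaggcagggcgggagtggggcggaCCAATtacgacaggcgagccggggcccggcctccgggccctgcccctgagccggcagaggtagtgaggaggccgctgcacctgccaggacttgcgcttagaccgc
Nsdhl: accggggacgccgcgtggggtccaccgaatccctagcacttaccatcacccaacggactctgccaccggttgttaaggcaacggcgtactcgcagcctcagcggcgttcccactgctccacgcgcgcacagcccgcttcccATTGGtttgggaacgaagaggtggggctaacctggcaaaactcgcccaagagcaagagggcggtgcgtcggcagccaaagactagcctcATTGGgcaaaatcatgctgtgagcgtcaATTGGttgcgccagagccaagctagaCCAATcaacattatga
Hsd17b7: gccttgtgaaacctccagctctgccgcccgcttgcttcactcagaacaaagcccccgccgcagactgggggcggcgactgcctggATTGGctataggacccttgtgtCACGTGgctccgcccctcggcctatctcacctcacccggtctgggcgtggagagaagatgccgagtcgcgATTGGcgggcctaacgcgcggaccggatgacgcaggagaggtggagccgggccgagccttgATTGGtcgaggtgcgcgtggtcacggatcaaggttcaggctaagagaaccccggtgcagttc
Hmgcs1: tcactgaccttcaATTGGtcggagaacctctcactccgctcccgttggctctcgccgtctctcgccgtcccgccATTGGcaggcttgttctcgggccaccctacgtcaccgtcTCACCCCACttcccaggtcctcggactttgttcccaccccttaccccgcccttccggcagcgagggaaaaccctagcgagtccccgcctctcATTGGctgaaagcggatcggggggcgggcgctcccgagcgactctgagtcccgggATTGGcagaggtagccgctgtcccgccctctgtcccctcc
The Cyp51 window holds a CCAAT match, the Msmo1 window 3, the Nsdhl window 4, and the Hsd17b7 window 3 with an E-box, so the enzymes that were higher and the enzyme that was lower all carry CCAAT. Promoter entries were found for 27 of the 35 genes, not for Scd1, Scd2, Dgat1, Dgat2, Sqle, Fads1, Fdft1 and Fdps. Searched on both strands, CCAAT stood in 16 of 17 sterol branch genes (81% of their 21 entries) and in 6 of 10 fatty acid branch genes (50% of their 12 entries), against 37.4% of 32851 mouse promoters of the same length. TCACNCCAC stood in 1.24% of all promoters and in 3.03% of the 33 entries of members. The E-box stood in 7.15% of all promoters and in 15.2% of the 33 entries (5 of the 27 genes). Other forms of the sterol response element were not searched. The motifs did not overlap each other in these windows, and a match is a description of the letters, not a binding site.

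S55L naive hearts differed from WT naive hearts in 15 of the 28 members with enough counts to test, 8 higher and 7 lower, where 43.5% of all 11945 genes tested were called (adjusted p below 0.05 in the quasi-likelihood test of edgeR). By direction 21.9% of all genes were higher and 21.6% lower, and 17 members had an unadjusted p below 0.05, beside 50.8% of all genes. In the sterol branch 5 of 14 members were called: the lanosterol demethylase Cyp51, the methyl sterol oxidase Msmo1 and the sterol dehydrogenase Nsdhl rose, and the squalene synthase Fdft1 and the regulator Srebf1 fell. In the fatty acid branch 10 of 14 were called, 5 in each direction: Elovl1, Scd1, Acaca, Scd4 and Fads1 rose, and Dgat2, Fads2, Acacb, Dgat1 and Gpam fell. The median log2 fold change was -0.18 over the sterol members and 0.37 over the fatty acid members, beside -0.0039 over all genes tested. Groups did not overlap for 11 of the 28 members, against 32.2% of all genes.

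After birth the same genotype contrast, S55L PP against WT PP, called 10 of 28 members, 6 higher and 4 lower, beside 31.5% of all genes tested (16.3% higher, 15.2% lower). An unadjusted p below 0.05 was reached by 13 members, beside 41.4% of all genes. Cyp51, Msmo1, Scd4, Elovl1, Acaca and Fads1 rose, and Dgat2, Acacb, Fdft1 and Hsd17b7 fell. By branch this was 4 of 14 sterol members and 6 of 14 fatty acid members, with median log2 fold changes of -0.15 and 0.17 beside -0.00068 over all genes tested. Groups did not overlap for 10 of the 28 members, against 25.4% of all genes. The 2 genotype contrasts use separate libraries within one fit, and the members called in both are given side by side below.

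**Figure D1:**
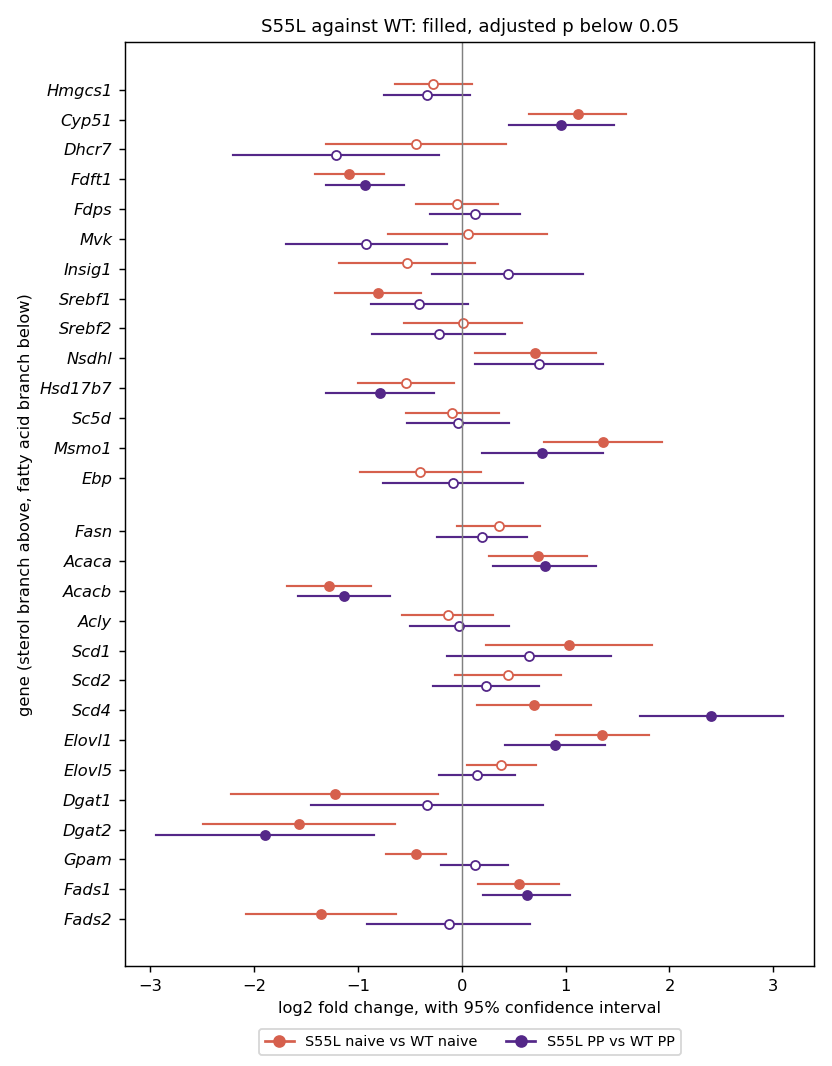
Log2 fold change of each tested member in S55L against WT (horizontal axis; bars, 95% confidence intervals), with naive hearts in orange and PP hearts in purple; filled points have an adjusted p below 0.05. Cyp51 and Msmo1 lie to the right and Fdft1 to the left of 0 in both, Acaca lies right and Acacb left, and Scd4 has its highest value, 2.40, in PP hearts.

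Among the regulators, Srebf2 (the sterol regulator) read 6.46, 7.33, 7.58, 6.54 and 6.32 CPM in S55L naive hearts, against 8.24, 7.35, 8.77, 2.29 and 7.42 CPM in WT naive hearts. These values overlap, with WT naive 4 below all others, and the log2 fold change was 0.01 (95% interval -0.56 to 0.58). In PP hearts Srebf2 read 5.59, 5.62, 5.92 and 4.05 CPM in S55L, against 6.89, 8.93, 6.04 and 3.59 CPM in WT, a log2 fold change of -0.22 (-0.87 to 0.42).

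Srebf1, whose products include the main lipogenic regulator, read 10.2, 10.5, 9.37, 6.25 and 10.2 CPM in S55L naive hearts, against 14.9, 12.2, 17.0, 22.9 and 14.8 CPM in WT naive hearts. Every S55L naive library was below every WT naive library, and the log2 fold change was -0.81 ± 0.20 (SE; adjusted p = 0.0021). In PP hearts it read 8.38, 8.99, 12.4 and 8.73 CPM in S55L, against 13.4, 12.3, 11.5 and 13.6 CPM in WT. Those groups overlap and the change of -0.41 missed the threshold (adjusted p = 0.18). The naive call was also lost when all libraries were thinned to the depth of the shallowest (-0.58, adjusted p = 0.075). Plate column as a term lost it too (-0.90, adjusted p = 0.12). The Srebf1 model shares 109 bases at its 3′ end with Rai1 on the opposite strand, whose part was not tested. Insig1, which retains the regulators in the endoplasmic reticulum, ranged from 2.68 to 6.25 CPM in S55L naive and 4.59 to 9.80 CPM in WT naive hearts, and was not called in either contrast.

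Of the mevalonate enzymes up to farnesyl diphosphate, Hmgcs1, Mvk and Fdps could be tested and none was called by edgeR in either contrast. Hmgcs1 makes the precursor of mevalonate and read 25.4, 23.9, 24.5, 23.3 and 25.3 CPM in S55L naive hearts, against 26.3, 28.6, 26.3, 31.5 and 35.1 CPM in WT naive hearts. The groups do not overlap, yet the log2 fold change of -0.27 ± 0.18 missed the threshold (adjusted p = 0.23), and the PP value was -0.34 (adjusted p = 0.22). With a term for the outer plate rows the naive change of Hmgcs1 passed it (-0.38, adjusted p = 0.042). Mvk, the mevalonate kinase, was lower in all 4 S55L PP libraries (2.02 to 4.04 CPM) than in all 4 WT PP libraries (4.35 to 7.82 CPM), and its change of -0.92 ± 0.38 also missed it with edgeR (adjusted p = 0.064). The Mvk change in PP hearts was called by limma voom with quality weights (-1.24, adjusted p = 0.0076) and by edgeR with all deposited columns (-0.81, adjusted p = 0.047). The fit with all deposited columns counts the identical PP columns as separate libraries, which overstates the replication. Idi1, Mvd, Acat2, Sqle and Lss passed no filter in the postpartum study; with Tm7sf2 and Elovl6 they make up the 7 untested members, whose counts summed over the 18 libraries lay between 17 and 153 and whose highest value in any library was 5.65 CPM.

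Fdft1 (ENSMUSG00000021273.12), the squalene synthase that commits carbon to sterols, read 22.3, 27.3, 25.9, 32.7 and 24.4 CPM in S55L naive hearts, against 53.1, 46.5, 61.4, 74.0 and 45.0 CPM in WT naive hearts. In PP hearts it read 17.3, 23.1, 25.0 and 28.7 CPM in S55L, against 41.0, 47.4, 45.3 and 46.6 CPM in WT. All S55L libraries lay below all WT libraries, and the level fell 2.12-fold in naive hearts (log2 -1.08 ± 0.16, adjusted p = 4.7e-06) and 1.91-fold in PP hearts (log2 -0.94 ± 0.18, adjusted p = 0.00024). The gene models of Fdft1 and of the protease gene Ctsb share 774 bases at the Fdft1 3′ end on opposite strands in GENCODE M21; Ctsb rose by 0.75 in naive and 0.65 in PP hearts on the log2 scale, and its part in the fall was not tested. With plate column as a term the naive call held (-0.90, adjusted p = 0.038) and the PP call was lost (-0.51, adjusted p = 0.32).

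Cyp51 (ENSMUSG00000001467.6) opens the steps after lanosterol and read 14.6, 13.0, 16.9, 11.4 and 10.5 CPM in S55L naive hearts, against 4.64, 5.72, 4.68, 7.46 and 7.92 CPM in WT naive hearts. Its PP values were 10.9, 13.5, 13.7 and 11.5 CPM in S55L, against 7.25, 6.14, 7.85 and 4.66 CPM in WT. No S55L library overlapped a WT library, and Cyp51 rose 2.17-fold in naive hearts (log2 1.12 ± 0.23, adjusted p = 3e-04) and 1.94-fold in PP hearts (log2 0.96 ± 0.25, adjusted p = 0.0038). With plate column as a term both calls were lost (log2 0.85, adjusted p = 0.22 in naive and 0.67, adjusted p = 0.36 in PP hearts). The Cyp51 model shares 166 bases at its 3′ end with Akap9 on the opposite strand; Akap9 fell by 0.70 in naive hearts, and its part was not tested.

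Msmo1 (ENSMUSG00000031604.11), Nsdhl and Hsd17b7 act in turn to strip methyl groups from the sterol ring. Msmo1 read 16.7, 18.2, 16.9, 14.2 and 19.4 CPM in S55L naive hearts, against 1.03, 8.98, 7.02, 8.03 and 8.91 CPM in WT naive hearts, and 10.9, 16.2, 18.8 and 18.4 CPM in S55L PP, against 8.34, 11.7, 7.85 and 9.68 CPM in WT PP hearts. The naive groups are apart and the PP groups overlap at S55L PP 1; the rise was 2.57-fold in naive hearts (log2 1.36 ± 0.28, adjusted p = 0.00027) and 1.71-fold in PP hearts (log2 0.78 ± 0.28, adjusted p = 0.038). The PP call was lost without any 1 of S55L PP 3, 4 or 5 or of WT PP 1, 4 or 5 (log2 0.69 to 0.80, adjusted p 0.058 to 0.094). It was also lost at thinned depth (0.70, adjusted p = 0.092) and with plate column as a term (1.14, adjusted p = 0.16).

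Nsdhl read 7.09, 6.43, 5.80, 5.69 and 8.07 CPM in S55L naive hearts, against 4.12, 3.27, 5.26, 4.02 and 3.46 CPM in WT naive hearts. These groups do not overlap and the log2 fold change was 0.71 ± 0.28 (adjusted p = 0.045), a call lost without any 1 of WT naive 1, 2, 4 or 5 or S55L naive 1, 2 or 5 (0.63 to 0.72, adjusted p 0.062 to 0.099). It was also lost with DESeq2 (adjusted p = 0.062), limma voom (0.069) and no filter on low counts (0.064). Plate column as a term gave an adjusted p of 0.35, a term for the outer plate rows 0.059, and leaving out their libraries 0.07. Thinned to equal depth, the naive change was 0.42 (adjusted p = 0.37). In PP hearts the change was 0.74 ± 0.30 with overlapping groups (adjusted p = 0.06). It passed the threshold scaled by total counts (1.01, adjusted p = 0.01). It also passed with all deposited columns, identical ones counted separately (adjusted p = 0.025), and without S55L PP 1 (0.045) or WT PP 4 (0.026).

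Hsd17b7 went the other way. It read 15.4, 7.68, 10.7, 10.5 and 8.29 CPM in S55L naive hearts, against 16.5, 14.7, 9.94, 14.9 and 19.8 CPM in WT naive hearts, and 6.15, 12.4, 9.69 and 7.79 CPM in S55L PP, against 15.6, 14.5, 17.5 and 15.4 CPM in WT PP hearts. Only the PP groups are apart, with a log2 fold change of -0.79 ± 0.25 (adjusted p = 0.018), against -0.54 ± 0.23 in naive hearts (adjusted p = 0.056). The naive change was called by limma voom (-0.58, adjusted p = 0.028), with a term for the outer plate rows (adjusted p = 0.039) and without S55L naive 1 (0.013) or WT naive 3 (0.026). The PP call was lost without S55L PP 1 (-0.64, adjusted p = 0.056) and without the outer-row libraries described below (-0.53, adjusted p = 0.28). Leaving those out kept only libraries 3 and 4 in each PP group, here and for the genes below. It was also lost with limma voom (-0.61, adjusted p = 0.061), total counts as the scaling (-0.53, adjusted p = 0.1), no filter (-0.71, adjusted p = 0.051) and plate column as a term (adjusted p = 0.19). The ratio of Msmo1 to Hsd17b7 counts within a library does not depend on scaling. It was 1.31 to 2.36 in S55L PP and 1.08 to 2.37 in S55L naive hearts. WT PP hearts gave 0.448 to 0.808 and WT naive hearts 0.0625 to 0.706, where 0.0625 is 2 over 32 counts in WT naive 1. The ratio combines the 2 opposite changes already given and is no separate evidence of them. The later enzymes Ebp, Sc5d and Dhcr7 were called by edgeR in neither contrast. Dhcr7, the last reductase, stood at -1.21 ± 0.49 in PP hearts (adjusted p = 0.056). DESeq2 called it there (-1.23, adjusted p = 0.048). The Dhcr7 change in PP hearts also passed the edgeR threshold with the title number as a replicate block (adjusted p = 0.033) or a term for the outer plate rows (0.031). It did so too with all deposited columns, identical ones counted separately (adjusted p = 0.011), and without S55L PP 4 (0.042) or WT PP 3 (0.033).

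**Figure D2:**
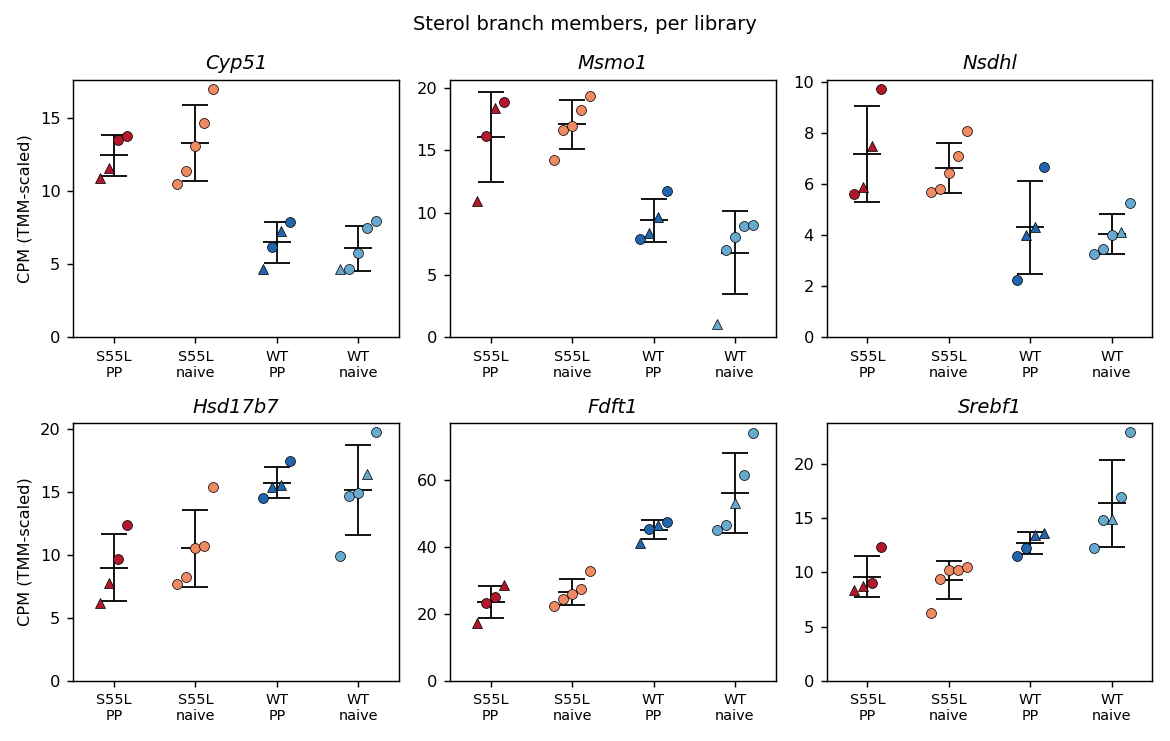
Level of 6 sterol branch members in each library (vertical axis, CPM after TMM scaling, starting at 0), with S55L groups left of WT groups; triangles are libraries from the outer plate rows, and bars give the mean ± SD. Cyp51, Msmo1 and Nsdhl sit higher and Fdft1, Srebf1 and Hsd17b7 lower in S55L naive than in WT naive hearts on average, and the Fdft1 libraries of the 2 genotypes are fully apart.

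The 2 acetyl-CoA carboxylases moved in opposite directions. Acaca (ENSMUSG00000020532.19), the cytosolic form that supplies fatty acid synthesis, read 8.55, 13.4, 13.4, 13.9 and 15.0 CPM in S55L naive hearts, against 7.21, 8.98, 7.02, 9.75 and 5.94 CPM in WT naive hearts, and 15.1, 18.4, 12.9 and 14.0 CPM in S55L PP, against 8.34, 6.14, 7.25 and 12.2 CPM in WT PP hearts. The naive groups overlap at S55L naive 1 and the PP groups are apart; the rise was 1.67-fold (log2 0.74 ± 0.23, adjusted p = 0.011) and 1.74-fold (log2 0.80 ± 0.24, adjusted p = 0.012). The PP call was lost without S55L PP 3 (0.69, adjusted p = 0.053), and both calls at thinned depth (0.56, adjusted p = 0.11 in naive and 0.78, adjusted p = 0.053 in PP hearts). Both Acaca calls were lost too with plate column as a term (0.82, adjusted p = 0.23 in naive and 0.75, adjusted p = 0.3 in PP hearts). Without the outer-row libraries the PP value was 1.23 (adjusted p = 0.012).

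Acacb (ENSMUSG00000042010.17), the form at the mitochondrial surface whose malonyl-CoA restrains fatty acid entry, read 63.4, 70.8, 79.4, 79.0 and 61.5 CPM in S55L naive hearts, against 245, 156, 177, 134 and 147 CPM in WT naive hearts. The PP libraries gave 99.5, 58.4, 68.1 and 62.4 CPM in S55L, against 242, 112, 149 and 128 CPM in WT. No libraries of the 2 genotypes overlap, and Acacb fell 2.43-fold in naive hearts (log2 -1.28 ± 0.20, adjusted p = 8.4e-06) and 2.2-fold in PP hearts (log2 -1.14 ± 0.22, adjusted p = 0.00023). The call held in every alternative run, and with plate column as a term the change was larger (-2.18 in naive, -1.96 in PP hearts). That term is separated from genotype only through WT PP 1, the highest WT PP library here (242 CPM). The ratio of Acacb to Acaca counts in a library was 3.17 to 6.59 in S55L PP and 4.09 to 7.41 in S55L naive hearts. It was 10.5 to 29 in WT PP and 13.7 to 33.9 in WT naive hearts, with no overlap between genotypes. The ratio combines the 2 opposite changes already given and is no separate evidence of them. As 3′ counts were not corrected for transcript length, it compares libraries and not the abundance of the 2 transcripts.

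Acly, which makes cytosolic acetyl-CoA from citrate, and Fasn, the synthase itself, were not called by edgeR in either contrast. Their log2 fold changes were -0.14 and 0.36 in naive hearts and -0.03 and 0.20 in PP hearts. Scaled by total counts, Fasn was called in naive hearts (0.60, adjusted p = 0.016).

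The stearoyl-CoA desaturases, which introduce the first double bond of monounsaturated fatty acids, behaved differently from each other. Scd4 (ENSMUSG00000050195.9), the form known from mouse heart, read 32.4, 59.3, 40.7 and 18.4 CPM in S55L PP hearts, against 8.34, 3.35, 8.46 and 7.89 CPM in WT PP hearts. These groups do not overlap, and the 5.29-fold rise was the largest of any member in the 2 genotype contrasts (log2 2.40 ± 0.33, adjusted p = 6.5e-06). In naive hearts it read 34.6, 24.3, 29.4, 48.9 and 33.4 CPM in S55L, against 22.1, 11.4, 21.6, 20.7 and 26.7 CPM in WT. There the groups overlap and the rise was 1.62-fold (log2 0.70 ± 0.27, adjusted p = 0.038); it missed the threshold without any 1 of WT naive 1, 2, 3 or 4 or S55L naive 1, 4 or 5 (0.54 to 0.72, adjusted p 0.056 to 0.11). With plate column as a term both Scd4 calls were lost (1.14, adjusted p = 0.16 in PP and 0.38, adjusted p = 0.69 in naive hearts). The naive call was also lost with limma voom (adjusted p = 0.067) and with a term for the outer plate rows (0.069). Of the 50-base stretches at the transcript ends of Scd4, 26.8% also occur in other genes; the effect on its counts was not tested.

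Scd1 (ENSMUSG00000037071.4), the widely expressed form, read 5.84, 6.61, 6.24, 5.69 and 5.45 CPM in S55L naive hearts, against 1.55, 2.45, 5.85, 2.29 and 2.47 CPM in WT naive hearts. WT naive 3 overlaps the S55L naive values and the other WT naive libraries lie below them; the log2 fold change was 1.03 ± 0.39 (adjusted p = 0.034), lost without any 1 of WT naive 1, 2, 4 or 5 or S55L naive 2 (0.85 to 0.99, adjusted p 0.062 to 0.1). It was also lost at thinned depth (0.68, adjusted p = 0.23) and with all deposited columns (adjusted p = 0.052). The naive value was 3.98 with plate column as a term (adjusted p = 0.0014). In PP hearts Scd1 read 5.31, 7.64, 8.35 and 6.24 CPM in S55L, against 0.725, 7.26, 3.62 and 6.45 CPM in WT, and was not called (0.65, adjusted p = 0.21), while with plate column as a term it was (3.04, adjusted p = 0.016). Both plate-column values of Scd1 rest on WT PP 1, the lowest WT PP library (0.725 CPM), to separate column from genotype. Scd2 read 9.38, 8.76, 8.47, 11.9 and 14.6 CPM in S55L naive hearts, against 6.70, 9.80, 5.26, 8.03 and 9.40 CPM in WT naive hearts. It was called by edgeR in neither contrast (0.44, adjusted p = 0.16 in naive and 0.23, adjusted p = 0.51 in PP hearts), and the PP values of 10.9, 16.2, 17.2 and 16.2 CPM in S55L overlapped those of 7.98, 12.3, 15.1 and 16.5 CPM in WT. The naive change of Scd2 passed the threshold with plate column as a term (1.33, adjusted p = 0.048) and scaled by total counts (0.69, adjusted p = 0.021).

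Among the elongases, Elovl1 (ENSMUSG00000006390.16), which extends very long saturated and monounsaturated chains, read 31.3, 36.8, 39.7, 30.7 and 24.2 CPM in S55L naive hearts, against 8.76, 13.1, 12.9, 19.5 and 9.90 CPM in WT naive hearts. In PP hearts it read 26.3, 32.8, 27.2 and 25.9 CPM in S55L, against 10.9, 24.6, 12.7 and 13.3 CPM in WT. The genotypes do not overlap in either state, and Elovl1 rose 2.56-fold in naive hearts (log2 1.35 ± 0.22, adjusted p = 1.7e-05) and 1.87-fold in PP hearts (log2 0.90 ± 0.24, adjusted p = 0.0043). The PP call was lost with plate column as a term (1.25, adjusted p = 0.065) and without the outer-row libraries (0.68, adjusted p = 0.09). The Elovl1 model shares 53 bases at its 3′ end with Cdc20 on the opposite strand, whose part was not tested.

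Elovl5, which extends polyunsaturated chains, read 39.8, 53.1, 43.7, 49.7 and 51.0 CPM in S55L naive hearts, against 28.3, 38.4, 39.2, 35 and 41.6 CPM in WT naive hearts, overlapping at S55L naive 1 (log2 0.38, adjusted p = 0.06). That change was called by limma voom (0.36, adjusted p = 0.032) and, with plate column as a term, by edgeR (0.94, adjusted p = 0.031). Total counts as the scaling gave 0.64 (adjusted p = 0.0013). The edgeR threshold was also passed with no filter (adjusted p = 0.022), the compared groups alone (0.032), the replicate block (0.034) and without S55L naive 1 (0.044). In PP hearts it read 38.0, 48.1, 54.9 and 34.3 CPM in S55L, against 29.4, 38.0, 45.9 and 45.9 CPM in WT (log2 0.15, adjusted p = 0.57). Elovl6, the elongase next in line after fatty acid synthase, ranged only from 0 to 4.05 CPM and was not tested.

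The polyunsaturated fatty acid desaturases Fads1 and Fads2 moved apart in naive hearts. Fads1 read 25.9, 26.3, 30.1, 24.2 and 36.2 CPM in S55L naive, against 13.4, 23.7, 21.6, 20.7 and 19.3 CPM in WT naive hearts, and 28.8, 26.5, 33.1 and 45.8 CPM in S55L PP, against 16, 23.4, 23.0 and 24.7 CPM in WT PP hearts. Neither pair of groups overlaps and the log2 fold changes were 0.55 ± 0.19 (adjusted p = 0.022) and 0.63 ± 0.21 (adjusted p = 0.02). The naive call was lost without WT naive 1 (0.43, adjusted p = 0.083) or S55L naive 5 (0.44, adjusted p = 0.072), and the PP call without WT PP 1 (0.50, adjusted p = 0.091) or S55L PP 5 (0.45, adjusted p = 0.1). Both were also lost at thinned depth (0.27, adjusted p = 0.38 and 0.49, adjusted p = 0.16). The PP call was lost with limma voom (0.43, adjusted p = 0.079), with the compared groups alone (0.62, adjusted p = 0.056) and without the outer-row libraries (0.35, adjusted p = 0.29). Both Fads1 changes were larger with plate column as a term (1.12, adjusted p = 0.025 in naive and 1.52, adjusted p = 0.0047 in PP hearts). These larger values rest on WT PP 1, the lowest WT PP library (16 CPM), to separate column from genotype.

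Fads2 read 3.34, 3.04, 2.23, 3.70 and 2.83 CPM in S55L naive hearts, against 15.5, 4.90, 6.43, 7.46 and 3.96 CPM in WT naive hearts. The groups do not overlap, with WT naive 1 far above the others, and the log2 fold change was -1.36 ± 0.35 (adjusted p = 0.0027); without the outer-row libraries, WT naive 1 among them, it was -0.90 (adjusted p = 0.028), and with plate column as a term -2.13 (adjusted p = 0.028). In PP hearts the S55L values of 7.83, 3.59, 3.23 and 4.99 CPM overlapped the WT values of 7.62, 2.79, 4.83 and 5.38 CPM (-0.13, adjusted p = 0.83).

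Dgat2 (ENSMUSG00000030747.6) and Dgat1 catalyse the last step of triglyceride synthesis. Dgat2 read 255, 243, 267, 406 and 258 CPM in S55L naive hearts, against 243, 1132, 969, 981 and 913 CPM in WT naive hearts, and 155, 225, 227 and 87.9 CPM in S55L PP, against 323, 976, 1003 and 291 CPM in WT PP hearts. WT naive 1, WT PP 1 and WT PP 5 stood far below the other WT libraries. S55L PP 1 and S55L PP 5 were the lowest of their group. Of these, WT naive 1, WT PP 5 and S55L PP 5 came from the outer rows of the plate. WT PP 1 and S55L PP 1 were counted as outer-row libraries, but each was deposited under a row A and a row B well, so their row is uncertain. Dgat2 fell 2.97-fold in naive hearts (log2 -1.57 ± 0.43, adjusted p = 0.0087) and 3.72-fold in PP hearts (log2 -1.89 ± 0.49, adjusted p = 0.0081). Without the outer-row libraries the values were -1.79 (adjusted p = 3.8e-12) and -2.13 (adjusted p = 3.7e-09). That fit left out all the low libraries just named and kept only libraries 3 and 4 in each PP group. With plate column as a term the naive value was -0.34 (adjusted p = 0.8) and the PP value -1.88 (adjusted p = 0.18). In that fit WT PP 1, a library of uncertain row, separates column from genotype.

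Dgat1 read 3.96, 3.57, 6.47, 1.71 and 2.18 CPM in S55L naive hearts, against 16, 5.72, 7.60, 4.02 and 8.41 CPM in WT naive hearts. The groups overlap and WT naive 1 is the highest; the log2 fold change was -1.23 ± 0.48 (adjusted p = 0.044), and without WT naive 1 it was -0.84 (adjusted p = 0.2). The call was also lost without any 1 of WT naive 3 or 5 or S55L naive 1, 2, 4 or 5 (-1.27 to -1.08, adjusted p 0.061 to 0.092). Without the outer-row libraries Dgat1 missed the threshold (-0.83, adjusted p = 0.062), as it did with a term for them (-0.80, adjusted p = 0.08). It was also missed with total counts (adjusted p = 0.12), all deposited columns (0.054) and plate column as a term (-2.34, adjusted p = 0.08). In PP hearts Dgat1 read 11.5, 2.7, 1.88 and 3.12 CPM in S55L, against 9.79, 2.79, 3.62 and 6.45 CPM in WT, with the highest value of each group in library 1, and was not called (-0.33, adjusted p = 0.68).

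Gpam, which starts glycerolipid synthesis at the mitochondrial outer membrane, read 111, 109, 117, 137 and 133 CPM in S55L naive hearts, against 187, 156, 174, 138 and 168 CPM in WT naive hearts. The groups do not overlap and the log2 fold change was -0.44 ± 0.14 (adjusted p = 0.013). Scaled by total counts it was -0.20 (adjusted p = 0.32), with no filter -0.31 (adjusted p = 0.16) and with plate column as a term -0.76 (adjusted p = 0.028). In PP hearts the S55L values of 103, 105, 119.8 and 159.6 CPM overlapped the WT values of 131, 92.7, 118 and 105 CPM (0.12, adjusted p = 0.59).

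**Figure D3:**
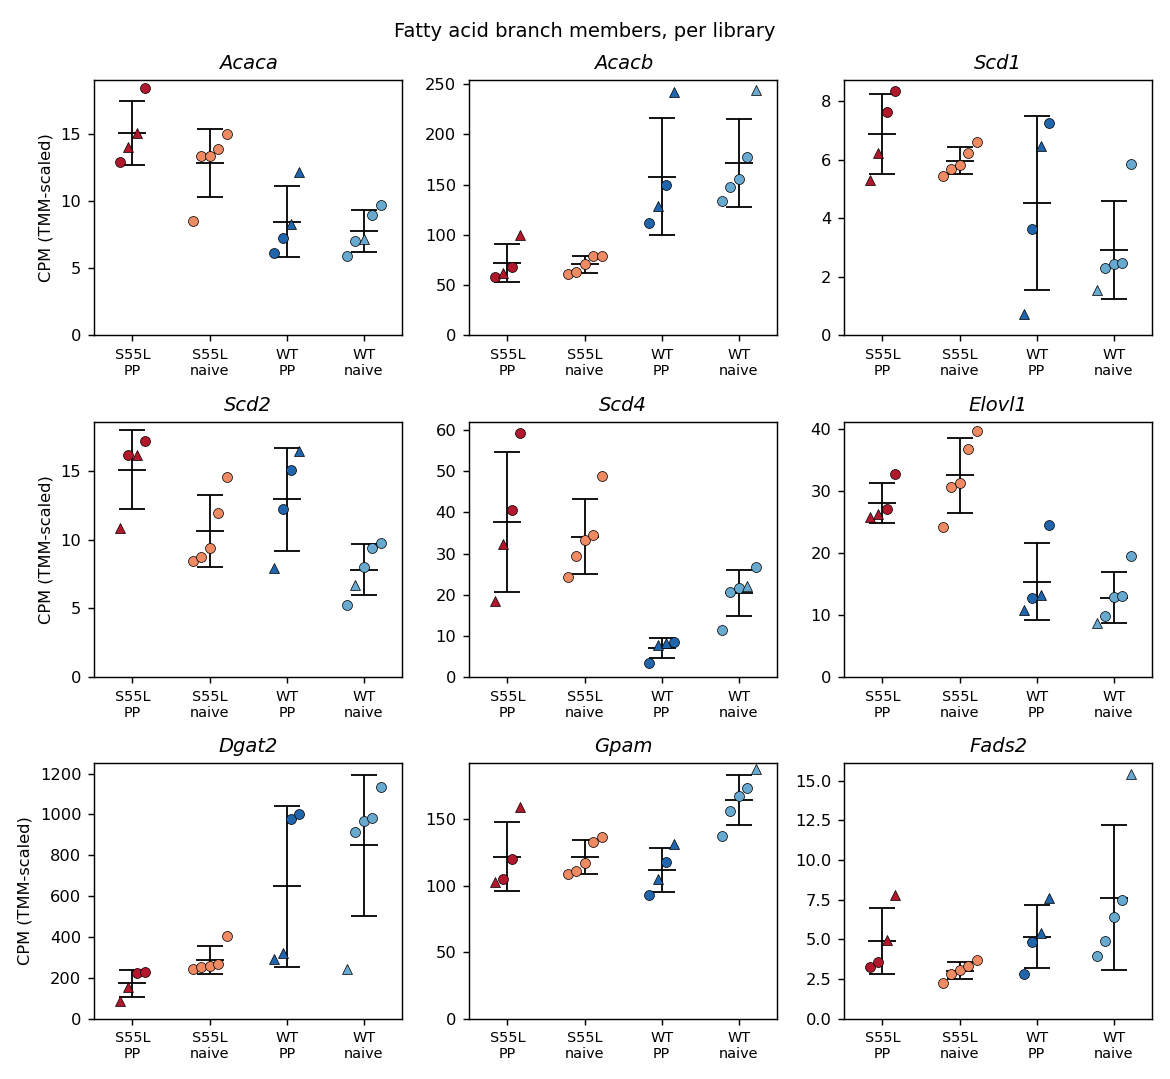
Level of 9 fatty acid branch members in each library (vertical axis, CPM after TMM scaling, starting at 0), with S55L groups left of WT groups; triangles are libraries from the outer plate rows, and bars give the mean ± SD. Acaca and Acacb differ in opposite directions between genotypes, and the Scd4 libraries of WT PP lie between 3.35 and 8.46 CPM, below all other groups. For Dgat2 the WT libraries shown as triangles lie far below the rest of WT.

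The counts over the branches depended on depth, plate column and scaling. At thinned depth 23 members could be tested and 8 were called in naive hearts, 4 in each direction, beside 40.4% of all genes tested at that depth, and 7 were called in PP hearts, beside 29%. With plate column as a term 10 of 28 members were called in naive hearts, 8 of them among the 15, beside 24.1% of all genes. The same term left 3 of 28 in PP hearts, which were Acacb, Fads1 and Scd1, beside 17.6% of all genes. Scaling by total counts in place of TMM shifted the median over all genes by 0.25 in naive and 0.27 in PP hearts on the log2 scale; with it 33.6% of all genes were called higher and 12.4% lower in naive hearts, against 21.9% and 21.6% with TMM. In PP hearts it called 28.9% higher and 8.18% lower, against 16.3% and 15.2% with TMM. Under it 11 members rose and 5 fell in naive hearts, and 7 rose and 3 fell in PP hearts.

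Genes of the same pathways outside the 35 were read from 3 further lists, to be set against the 43.5% of all genes called in naive and 31.5% in PP hearts. Of 7 other measured sterol genes 3 were called in naive hearts (42.9%) and 1 in PP hearts (14.3%). Mbtps1 and Mbtps2, the proteases that release the sterol regulators, rose in S55L naive hearts (log2 0.78, adjusted p = 0.0012 and 0.50, adjusted p = 0.044) and the phosphomevalonate kinase Pmvk fell (-0.73, adjusted p = 0.039). In PP hearts Pmvk alone was called (-1.06, adjusted p = 0.014). Of 6 genes of sterol export and the liver X receptors 2 were called in naive hearts (33.3%) and 1 in PP hearts (16.7%). Soat1, which esterifies cholesterol for storage, rose in naive hearts (1.18, adjusted p = 0.00021) and in PP hearts (1.44, adjusted p = 4.5e-05), and Lpcat3, a phospholipid acyltransferase, fell in naive hearts (-0.68, adjusted p = 0.0016). Soat1 is also well expressed in macrophages, whose markers were higher in S55L hearts as given above; their part was not tested.

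Of 15 other fatty acid and glycerolipid genes, 1 rose and 4 fell in S55L naive hearts (33.3%, beside 43.5% of all genes), and 2 rose and 5 fell in S55L PP hearts (46.7%, beside 31.5%). Malic enzyme Me1, a source of NADPH, rose by 1.16 in naive hearts (adjusted p = 5e-08) and 1.26 in PP hearts (adjusted p = 1.2e-07). Mlxipl, which encodes the glucose-responsive lipogenic factor ChREBP, fell by 1.40 in naive hearts (adjusted p = 2.5e-05) and 1.89 in PP hearts (adjusted p = 3.1e-06). Thrsp, a lipogenic target of thyroid hormone, fell by 1.2 (adjusted p = 0.00089) and 1.34 (adjusted p = 0.0015), and Tecr, the last enzyme of the elongation cycle, by 1.21 (adjusted p = 0.00022) and 1.13 (adjusted p = 0.0018). Lpin1, the phosphatidate phosphatase of triglyceride synthesis, fell by 0.54 (adjusted p = 0.0029) and 1.14 (adjusted p = 2.4e-06).

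Set against naive hearts of the same genotype, PP hearts showed no called member. In WT PP against WT naive, 0 of 28 members passed the edgeR threshold and 3 had an unadjusted p below 0.05, beside 6.33% of all genes, while 2 genes, 0.0167% of all tested, were called; limma voom called 0 members and DESeq2 called Scd4. Scd4 gave 8.34, 3.35, 8.46 and 7.89 CPM in WT PP, against 22.1, 11.4, 21.6, 20.7 and 26.7 CPM in WT naive hearts. These groups do not overlap and the log2 fold change was -1.54 ± 0.35, but the adjusted p was 0.24 over all genes (unadjusted p = 2e-04). It was 0.0099 with DESeq2, 1.8e-05 with no filter on low counts and 0.042 with plate column as a term. Gpam gave 131, 92.7, 118 and 105 CPM in WT PP, against 187, 156, 174, 138 and 168 CPM in WT naive hearts, also without overlap (-0.56 ± 0.15, adjusted p = 0.35). Groups did not overlap for these 2 of 28 members, beside 1.88% of all genes. Scd2 was the third member with an unadjusted p below 0.05 (0.73, unadjusted p = 0.013, adjusted p = 0.67).

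In S55L PP against S55L naive hearts, 0 of 28 members and 0 of all genes (0%) were called by edgeR, and 1 member, Scd2, had an unadjusted p below 0.05 (0.51, adjusted p = 0.74), beside 6.25% of all genes; DESeq2 and limma voom called 0 members. Scd4 differed by 0.16 (95% interval -0.36 to 0.69). Dgat2 and Srebf2 did not overlap between these groups, both lower in S55L PP, beside 2.25% of all genes, and their changes were -0.71 (adjusted p = 0.85) and -0.36 (adjusted p = 0.86). S55L PP libraries stood mostly in plate column 3 and S55L naive libraries in column 2.

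Whether the postpartum change differs between genotypes was tested as an interaction, and 0 of 28 members were called by edgeR, DESeq2 and limma voom, as were 0 of all genes by edgeR (0%). Scd4 had the largest value, 1.71 ± 0.43 (95% interval 0.81 to 2.6, unadjusted p = 0.00064, adjusted p = 1), and passed the threshold only with no filter on low counts (1.66, adjusted p = 0.00067). Gpam (0.56, unadjusted p = 0.013) and Fads2 (1.23, unadjusted p = 0.025) were the other members with an unadjusted p below 0.05, beside 3.72% of all genes. For the carboxylases the interaction was 0.06 (95% interval -0.64 to 0.76) in Acaca and 0.14 (-0.45 to 0.74) in Acacb, which allows differences of that size between the states.

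**Figure D4:**
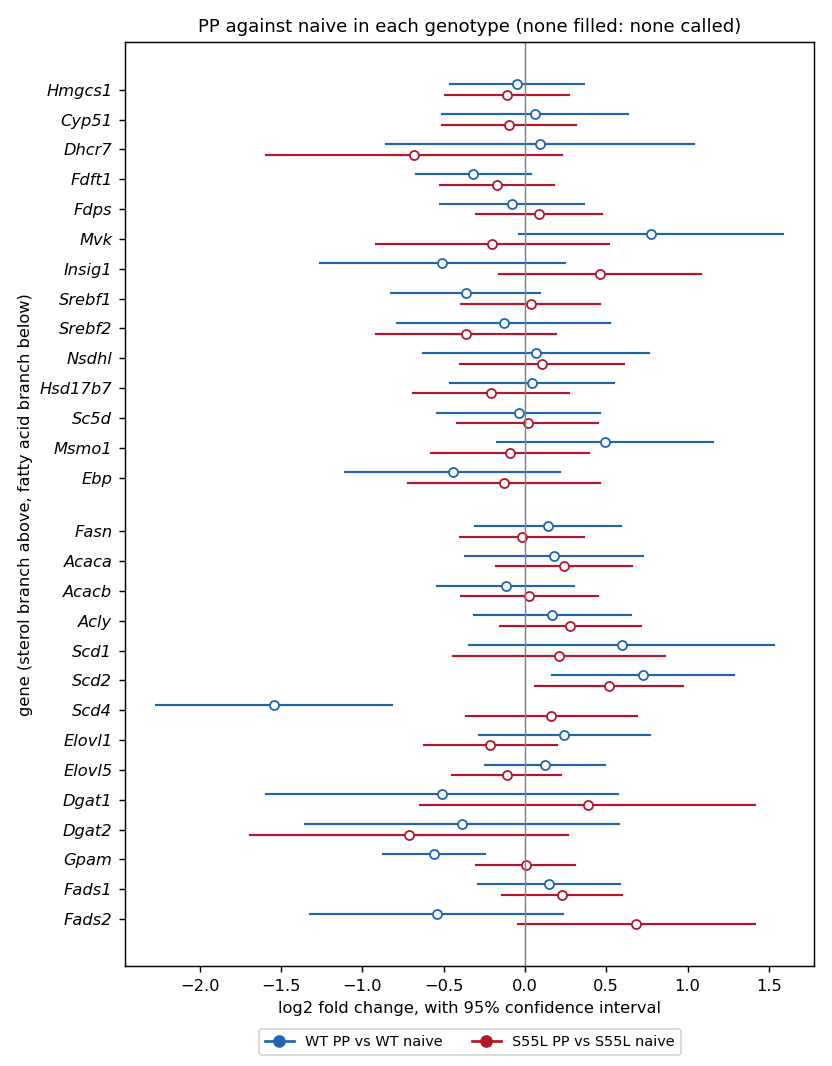
Log2 fold change of each tested member in PP against naive hearts (horizontal axis; bars, 95% confidence intervals), with WT in blue and S55L in red; no point is filled, as no adjusted p was below 0.05. The WT value of Scd4, -1.54, is the farthest from 0, while its S55L value is 0.16.

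In the diet study, EH301 diet was compared with control diet in S55L PP hearts in its own table, which lists another set of genes, so its levels are not compared with those above. Of 26 members tested, 0 were called by edgeR and 0 had an unadjusted p below 0.05, beside 0% of 10335 genes called and 1.33% with an unadjusted p below 0.05; DESeq2 and limma voom called 0 members too. The log2 fold changes ran from -0.64 (Scd1) to 0.23 (Acacb), with medians of -0.14 over 13 sterol and -0.05 over 13 fatty acid members, beside 0.02 over all genes. No member's groups were apart, beside 1.5% of all genes.

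Acacb, Scd4 and Cyp51, each called in both genotype contrasts, did not separate the diets. Acacb gave 114, 105, 109 and 119 CPM on EH301 diet, against 53.4, 110.2, 100.1 and 111 CPM on control diet (log2 0.23, 95% interval -0.32 to 0.78). Scd4 gave 30.4, 26.3, 31.2 and 19.4 CPM on EH301 diet, against 24.5, 22.6, 22.3 and 32.6 CPM on control diet (0.07, -0.46 to 0.60). Cyp51 gave 14.2, 38.9, 23.6 and 25.0 CPM on EH301 diet, against 13.3, 28.3, 29.6 and 25.5 CPM on control diet (-0.06, -0.74 to 0.62). In each of these the groups overlap. Each interval excludes a change as large as the fitted log2 difference between S55L PP and WT PP. That difference has an interval too: -1.58 to -0.69 for Acacb, 1.71 to 3.1 for Scd4 and 0.45 to 1.46 for Cyp51. A change the size of its end nearer to no change lies within the diet interval for Cyp51 and, as a rise, for Acacb. For Scd4 it does not. Of the other genes called in both contrasts, exclusion of the fitted genotype value also held for Acaca, Dgat2, Msmo1 and Fads1. Their genotype intervals in PP hearts likewise reach sizes that lie within their diet intervals. The exclusion did not hold for Fdft1, with a diet interval of -0.99 to 0.71 beside a genotype change of -0.94 in PP hearts. The Elovl1 interval, -1.01 to 0.80, excludes a rise of 0.90, its genotype change in PP hearts, but not a fall of that size.

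Elovl1 gave 61.9, 173, 64.3 and 76.7 CPM on EH301 diet, against 187, 61.5, 66.5 and 98.3 CPM on control diet. The high values belong to EH301 diet 8 and control diet 1, which had only 1141997 and 466651 reads on genes, the fewest of their groups. The same libraries stood above the rest for Mvd (74.9 and 149 CPM) and Gpam (454 and 638 CPM), and the fits without libraries under 1200000 reads also called 0 members. Dgat2 gave 73.0, 137, 87.9 and 107 CPM on EH301 diet, against 51.2, 154, 123 and 158 CPM on control diet (-0.30, -1.02 to 0.43). Dgat1 gave 32.2, 44.8, 33.4 and 27.9 CPM on EH301 diet, against 57.8, 46.4, 32.3 and 48.8 CPM on control diet (-0.41, -0.94 to 0.13).

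The remaining isoenzymes overlapped as well. Acaca gave 19.7, 32.1, 18.2 and 18.6 CPM on EH301 diet, against 26.7, 22.6, 17.6 and 22.1 CPM on control diet. Scd1 gave 3.46, 7.78, 10.2 and 11.5 CPM on EH301 diet, against 46.7, 8.68, 6.65 and 9.75 CPM on control diet, where the value of 46.7 is control diet 1. Scd2 gave 5.19, 3.89, 5.10 and 3.35 CPM on EH301 diet, against 0, 6.42, 6.65 and 1.88 CPM on control diet. Elovl5 ranged from 9.73 to 28.3 CPM on EH301 diet, against 16.5 to 24.0 CPM on control diet, and Srebf2 from 10.5 to 27.2 CPM, against 10.6 to 57.8 CPM. The 9 untested members were Sqle, Lss, Fdps, Idi1, Insig1, Srebf1, Tm7sf2, Elovl6 and Fads2, with 0 to 34 counts each over the 8 libraries. Fdps had 0 counts in all 8 libraries of this table, while 77.3% of the 50-base stretches at its 3′ end in GENCODE M21 also occur in other genes; what this does to its counts was not tested.

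**Figure D5:**
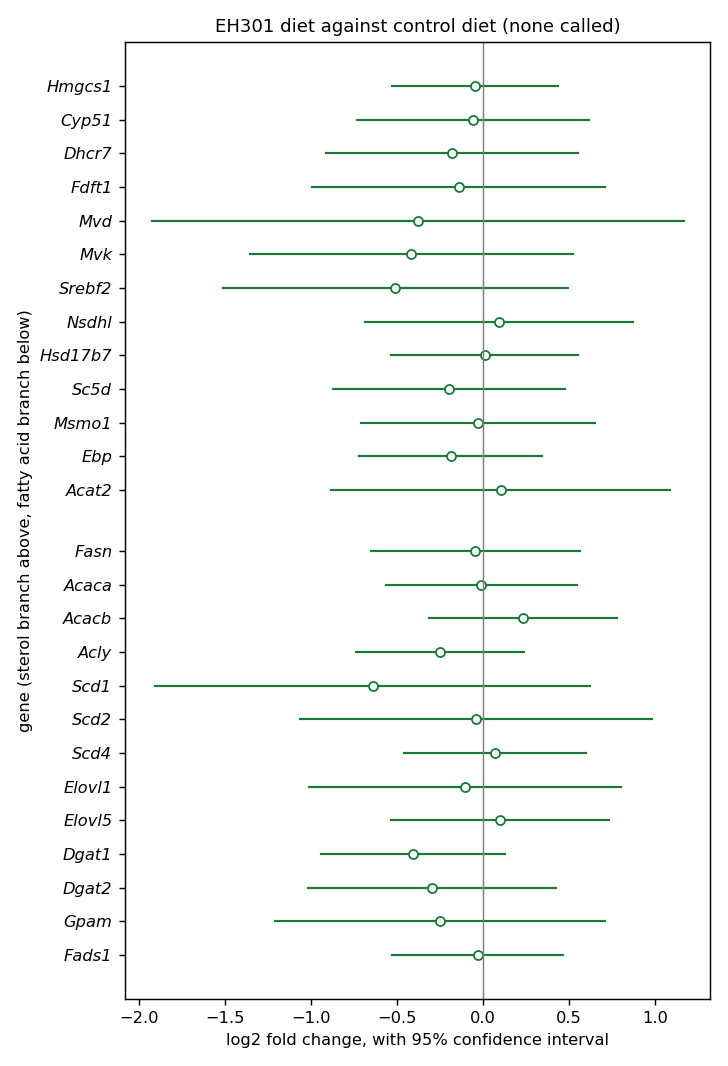
Log2 fold change of each tested member in EH301 diet against control diet (horizontal axis; bars, 95% confidence intervals). All intervals include 0, and the fitted values lie between -0.64 and 0.23.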

How the data were processed

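Heart RNA was extracted with the Qiagen RNeasy Mini kit and libraries were made with the Lexogen QuantSeq 3′ FWD kit, per the labels. The deposited tables hold unnormalised read counts for each gene. The submitters' processing notes name Trimmomatic 0.39, STAR 2.7.0f, HTSeq 0.6.1, DESeq2 3.21 and the genome GRCm39.p6. Annotation release, strand setting and counting mode are not given in the sources used here, so genes that overlap or share sequence are uncertain, and 7 of the 35 genes share their 3′ end with another gene model in GENCODE M21. Symbols came from that annotation by Ensembl ID.

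Summary lines stayed out of library sizes. Reads on genes were 66.3% to 69.2% of reads in S55L and 58.3% to 61.6% in WT libraries of the postpartum study, and 57.5% to 61.1% in the diet study. Columns identical within a group were used once, as the row A well of the 2 wells named; outer plate rows are A and H, from the column names. Each table was fitted on its own: 18 libraries of 4 groups together, and 8 libraries of 2 diets. Genes were filtered with filterByExpr (minimum count 10), scaled by TMM and fitted in R 4.3.3 with edgeR 4.0.16, whose robust quasi-likelihood test was used with Benjamini-Hochberg adjustment over all genes tested and a threshold of 0.05. CPM use the scaled library sizes. SE was obtained as log2 fold change over the root of the F value, and intervals are 95%. Fitted dispersion gave a biological coefficient of variation of 0.199 for the postpartum fit and 0.299 for the diet fit. The fit was tested on simulated data before use.

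The members, the other gene lists and the markers were chosen with earlier results of these data known. Values in every library are given for up to 6 called members per branch and comparison with the lowest adjusted p and a mean of at least 5 CPM, and always for paralogues and isoenzymes; Hmgcs1 and the other members with values were chosen after their values were seen. Whether title numbers pair the samples was checked. Same-numbered S55L PP and WT PP libraries deviated together (r = 0.119 to 0.333 over 4 pairs), while every other pair of groups had at least 1 r of 0.0286 or less. The highest were numbers 1 (0.326) and 5 (0.333), whose libraries were counted as outer plate rows in both groups. Differently numbered libraries were not compared, so the check cannot tell pairing from plate position. What a number marks is not in the labels. Alternatives were scaling by total counts or by DESeq2 size factors, fitting without a filter, testing with DESeq2 1.42.0 or with voom of limma 3.58.1 and quality weights, removing mitochondrially encoded genes, adding plate column or title number (as a replicate block) as a term, fitting the compared groups alone, keeping all deposited columns and leaving out each library; for diet also the shared library kept under either diet and no libraries under 1200000 reads. Further alternatives, chosen after seeing the data, were a term for the outer plate rows, leaving out their libraries, and thinning counts to 1418715 reads. Leaving out the outer-row libraries kept only libraries 3 and 4 in each PP group. Fits with all deposited columns count identical columns as separate libraries.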

Additional observations from a re-analysis of the deposited data

Results flagged for a closer look

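In groups of 4 or 5 libraries, 20 of 164 group checks had a library standing apart from the rest of its group by a gap test that chance passes in about 8 of 164; 12 were among the postpartum groups and 8 among the diet groups. In S55L PP these were Srebf1 in library 4 (12.4 CPM), Scd2 in library 1 (10.9 CPM) and Dgat1 in library 1 (11.5 CPM). In S55L naive they were Mvk in library 3 (6.47 CPM), Srebf1 in library 4 (6.25 CPM), Acaca in library 1 (8.55 CPM) and Dgat2 in library 4 (406 CPM). In WT PP it was Scd4 in library 3 (3.35 CPM). In WT naive they were Srebf2 in library 4 (2.29 CPM), Msmo1 in library 1 (1.03 CPM), Scd1 in library 3 (5.85 CPM) and Dgat2 in library 1 (243 CPM). Of the 12, 4 fell in libraries counted as outer plate rows, where the row of S55L PP 1 is uncertain. On EH301 diet, library 8 stood apart for Mvd (74.9 CPM), Msmo1 (31.1 CPM), Acaca (32.1 CPM) and Elovl1 (173 CPM). On control diet, library 1 stood apart for Mvd (149 CPM), Ebp (13.3 CPM), Acat2 (2.22 CPM) and Scd1 (46.7 CPM). These diet libraries had the fewest reads of their groups.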

How the results depend on the processing

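Over 553 repeats of called member changes under an alternative, 470 kept direction and threshold, 83 missed the threshold and 0 reversed. Over 3174 repeats of changes that were not called, 32 passed the threshold and 266 differed in sign without passing it. The repeats refit mostly the same libraries, so they are not independent checks. Repeats in which a member had no result, as when it failed the filter, are not among them. In S55L naive against WT naive the number of members called was 10 to 15 when a library was left out (38.4% to 42.3% of all genes) and 8 at thinned depth (40.4%), where only 23 members could be tested, against 15 (43.5%). In S55L PP against WT PP it was 8 to 11 when a library was left out (25.7% to 34.6% of all genes) and 3 with plate column as a term (17.6%), against 10 (31.5%); the cause was not tested. In WT PP against WT naive 1 member, Scd4, was called with no filter, with the DESeq2 test and with plate column as a term, and in the interaction 1 member, Scd4, with no filter; the main count was 0 in both, and 0 whenever a library was left out. S55L PP against S55L naive and EH301 diet against control diet gave 0 members in every alternative run. With the number in the titles as a replicate block, S55L PP against WT PP called 11 members, the 10 and Dhcr7 (-1.32, adjusted p = 0.033), S55L naive against WT naive 16, and the other contrasts of the postpartum study 0. No paired analysis was possible for the diets because their libraries share no numbers. The deepest libraries were S55L, members under about 5 CPM rest on few counts, and the 7 and 9 untested members did not pass the filter on low counts; Fdps, at 0 in every diet library, passed it in the postpartum study.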
